A study of Mus musculus with 12 samples.

Results

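A set of 10 heat shock chaperone genes was followed across RNA-seq libraries of mouse alveolar macrophages, the resident phagocytes of the lung air spaces. The genes are Hspa1a, Hspa1b, Hsph1, Hsp90aa1, Hspb1, Hspd1, Hspe1, Dnaja1, Dnajb1 and Chordc1, taken by symbol from the deposited count table. All 10 were among the 23413 genes of the table and among the 12748 genes with enough counts to test. The series asked what vitamin D3 and its receptor, encoded by Vdr, do in these macrophages. Its 12 libraries formed 6 groups of 2. Lavage cells were taken fresh from mice labelled Vdr knockout and from wild-type mice, each aged 10 or 4 weeks. Other wild-type macrophages spent 24 h in culture with 50 nM vitamin D3 or without it. The labels give no strain, no age for the mice behind the cultures, no detail of the knockout allele and no statement that the libraries of a group came from separate mice. P-values therefore cover only how far these libraries differ from each other, which may be technical.

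Heat shock chaperones bind unfolded proteins and help them to fold, and many are induced by the transcription factor HSF1 when proteins misfold. HSP70 proteins (here Hspa1a and Hspa1b) work in cycles with J-domain partners (Dnaja1, Dnajb1) and nucleotide exchange factors (Hsph1). HSP90 (Hsp90aa1) acts later on client proteins such as nuclear receptors and kinases, with co-chaperones that include the product of Chordc1. Hspd1 and Hspe1 encode the mitochondrial chaperonin HSP60 and its lid HSP10, and Hspb1 encodes the small heat shock protein HSP27.

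Total counts ranged from 10409572 to 23233674 per library, so that 1 count was worth 0.0904 CPM (normalised counts scaled to the library total) or less. Both replicate 2 libraries at 10 weeks came from females by their Xist level and the other 10 libraries from males, so each genotype had 1 library of each sex at 10 weeks. Vdr, which the knockout targets, was detected in all knockout-labelled libraries. Its 10-week level was 84.2 and 45.0 CPM in the knockout-labelled libraries and 79.6 and 126.9 CPM in wild-type cells. Its 4-week level was 45.9 and 31.2 CPM in the knockout-labelled libraries and 56.5 and 57.7 CPM in wild-type cells. In 10-week replicate 1 the knockout-labelled library thus held as much Vdr as wild type. The description code of that library names wild type. The code of wild-type replicate 2, which held the most Vdr at 10 weeks (126.9 CPM), names knockout. The genotype label was followed here, and each direction at 10 weeks rests on it. Markers of alveolar macrophages (12 of 14 listed symbols were in the table) summed to between 14320.2 and 44896.8 CPM in every library.

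The promoters of the HSP70 pair are shown because the same pair of genes had the largest log2 changes among the 10 genes between genotypes and carries nearly the same sequence. Sequences are from RefSeq on build GRCm38.p6, and 9 of the 10 genes had a window there (Hsp90aa1 had none). Each window holds the 250 bases before a transcription start, on the strand of the gene. Capitals mark a pair of inverted heat shock element units, written GAANNTTC or TTCNNGAA. Each of these motifs reads the same on both strands, and they can overlap each other. Hspa1a lies on the minus strand with its window at chr17:34972157-34972406, and Hspa1b on the minus strand with its window at chr17:34959239-34959488.
Hspa1a: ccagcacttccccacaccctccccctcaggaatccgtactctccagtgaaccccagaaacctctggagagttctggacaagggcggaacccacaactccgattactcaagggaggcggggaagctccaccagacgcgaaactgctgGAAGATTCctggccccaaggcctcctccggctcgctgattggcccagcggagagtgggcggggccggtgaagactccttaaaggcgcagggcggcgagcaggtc
Hspa1b: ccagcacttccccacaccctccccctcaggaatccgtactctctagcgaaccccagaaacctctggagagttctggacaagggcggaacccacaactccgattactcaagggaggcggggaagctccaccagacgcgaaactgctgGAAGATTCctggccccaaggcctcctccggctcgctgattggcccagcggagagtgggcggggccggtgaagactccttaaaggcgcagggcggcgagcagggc
The windows hold the same base at 247 of 250 positions (98.8%), and the match begins 104 bases before the start in both. Shorter stretches are shown for the gene that responded to vitamin D3, Hsph1 (minus strand, chr5:149636351-149636380), and for the site shared by the neighbours Hspe1 and Hspd1, which are transcribed in opposite directions (plus strand, chr1:55088053-55088082).
Hsph1: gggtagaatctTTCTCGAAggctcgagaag
Hspe1 and Hspd1: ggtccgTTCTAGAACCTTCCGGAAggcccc
The Hsph1 match begins 33 bases before 1 annotated start and 54 before the other. The shared Hspe1 and Hspd1 stretch holds 3 overlapping matches of 2 units and matches of the 3-unit motifs GAANNTTCNNGAA and TTCNNGAANNTTC. Of the 14 windows of the 9 genes, 8 held a 2-unit match, in 7 genes (12.8% of all 32851 RefSeq windows of 250 bases held one). The HSP70 windows are near copies and Hspd1 and Hspe1 share their site, so these matches are not independent. Of the 9 genes, Hspd1 and Hspe1 had a 3-unit match (0.466% of all windows). Dnajb1 and Chordc1 had no match of these letters in their windows. A check against transcript sequences found no transcript that starts after either Dnajb1 window. The missing match therefore cannot be read as a property of the Dnajb1 promoter. The Dnaja1 window with a match also had no such transcript, and the Dnaja1 windows that had one held no match.

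**Figure D1:**
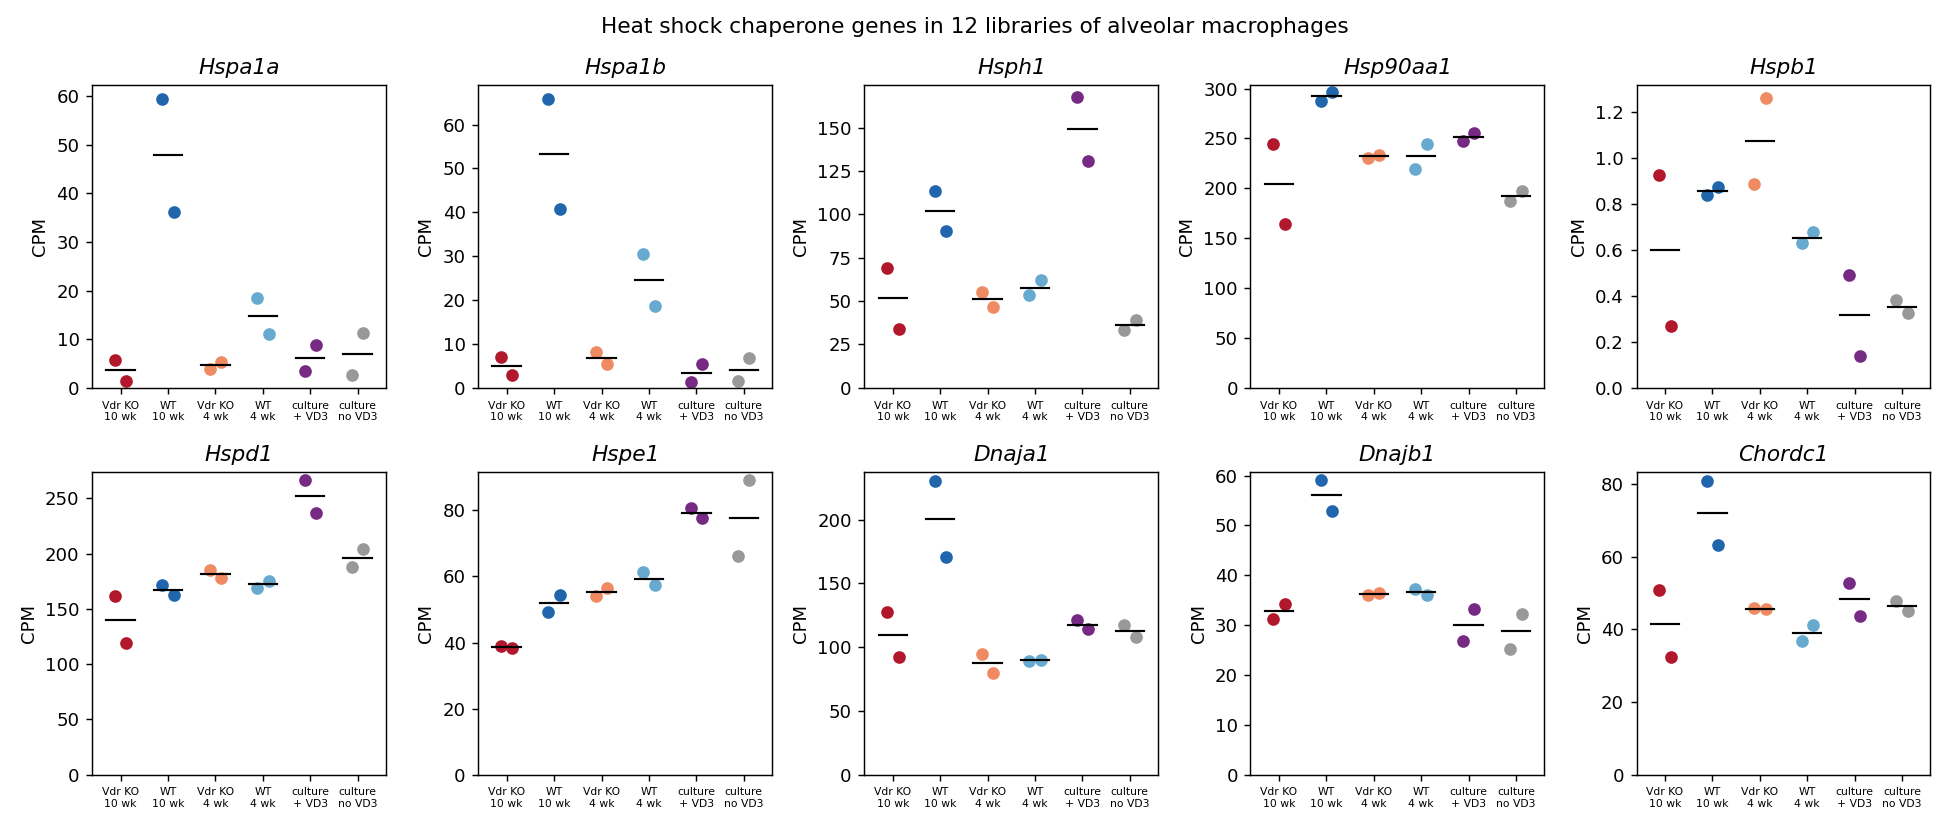
Expression of the 10 heat shock chaperone genes in each library, in CPM on a linear axis from 0. Each point is 1 library, each bar the mean of the 2 libraries of a group; in the Hspa1a and Hspa1b panels both 10-week wild-type points lie above all others, and in the Hsph1 panel both vitamin D3 points do.

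The inducible HSP70 genes had the largest differences in value between the genotypes at 10 weeks, lower in the knockout-labelled cells. Hspa1a was at 5.80 and 1.45 CPM in the knockout-labelled libraries, against 59.4 and 36.2 CPM in wild-type cells. Hspa1b was at 6.97 and 2.89 CPM in the knockout-labelled libraries, against 65.8 and 40.8 CPM in wild-type cells. The groups did not overlap for either gene. The log2 fold change was -3.61 ± 0.67 (SE) for Hspa1a and -3.37 ± 0.62 for Hspa1b. Leaving out 1 library at a time gave -5.05 to -3.05 for Hspa1a and -4.21 to -2.94 for Hspa1b, each lowest without knockout replicate 1. Neither gene passed the adjusted threshold of 0.05 (edgeR adjusted p = 0.0791 and 0.0789). Within replicate 1, both male, the log2 differences were -3.15 and -3.07. Within replicate 2, both female, they were -3.93 and -3.42. The authors' deposited table of log2 values, grouped by its own column names, gave differences of -3.58 for Hspa1a and -3.28 for Hspa1b. That table holds the same libraries, so it is not a separate measurement. Its values are near those under the genotype label, and far from those on exchanging the 2 libraries with conflicting codes (-0.78 and -0.73). Its column names thus group the 10-week libraries as the genotype label does. Which label is right was not tested.

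The J-domain partners of HSP70 were also lower in value in knockout-labelled cells at 10 weeks. Dnaja1, which delivers unfolded clients to HSP70, was at 127.2 and 92.4 CPM in the knockout-labelled libraries, against 230.0 and 170.8 CPM in wild-type cells. Dnajb1 was at 31.3 and 34.3 CPM in the knockout-labelled libraries, against 59.1 and 53.0 CPM in wild-type cells. Neither gene's groups overlapped. Dnajb1 had the smallest adjusted p of the 10 genes, at -0.78 ± 0.14 on the log2 scale (edgeR adjusted p = 0.0725), and Dnaja1 had one of -0.87 ± 0.17 (edgeR adjusted p = 0.0882). Hsph1, an exchange factor that also keeps proteins from aggregating, was at 69.3 and 33.7 CPM in the knockout-labelled libraries, against 113.4 and 90.1 CPM in wild-type cells. The log2 fold change came to -0.97 ± 0.26 (edgeR adjusted p = 0.204), and the library of replicate 2 labelled knockout stood well below the other.

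On the HSP90 side, Hsp90aa1 was at 244.5 and 164.6 CPM in the knockout-labelled 10-week libraries, against 287.8 and 297.0 CPM in wild-type cells. The log2 fold change came to -0.51 ± 0.15 (edgeR adjusted p = 0.243). Chordc1 was at 50.8 and 32.4 CPM in the knockout-labelled libraries, against 81.0 and 63.2 CPM in wild-type cells, log2 fold change -0.78 ± 0.19 (edgeR adjusted p = 0.172). The groups overlapped for neither gene, and for both the 2 knockout-labelled libraries lay further apart than the gap between the groups.

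The mitochondrial pair had small differences at 10 weeks. Hspd1 was at 162.0 and 118.7 CPM in the knockout-labelled 10-week libraries, against 171.6 and 162.4 CPM in wild-type cells, so that its groups were separated by under 1 CPM. Hspe1 was at 39.1 and 38.4 CPM in the knockout-labelled libraries, against 49.4 and 54.5 CPM in wild-type cells. The log2 values of this pair were -0.25 ± 0.13 and -0.42 ± 0.13 (edgeR adjusted p = 0.607 and 0.29). Hspb1 was near the detection limit in all 12 libraries, between 0.14 and 1.26 CPM, and its groups overlapped at 10 weeks, at -0.41 on the log2 scale.

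Counted together, 0 of the 10 genes passed edgeR's adjusted threshold at 10 weeks, where 0.11% of all tested genes did. An unadjusted p under 0.05 was reached by 8 of the 10, against 9.76% of all tested genes. All 10 log2 fold changes were negative, against 51.5% of all tested genes, and 9 of the 10 genes were lower without overlap of the groups, against 20.9%. The median log2 fold change was -0.78 over the 10 genes and -0.01 over all tested genes. DESeq2 called 6 of the 10 genes (Hspa1a, Hspa1b, Hsph1, Dnaja1, Dnajb1 and Chordc1), and edgeR with no filter on low counts called 7, with Hsp90aa1 added. Calls over all genes rose in these fits too, to 149 and 503, against 14 in the main fit. Codes conflict for knockout replicate 1 and wild-type replicate 2. Leaving out 1 library at a time gave log2 fold changes of -1.6 to -0.56 for Hsph1 and -0.83 to -0.26 for Hsp90aa1. The range was -1.12 to -0.63 for Dnaja1 and -1.16 to -0.51 for Chordc1. At 10 weeks the replicate number, the sex and the series of title numbers coincide. With the title series as a block 4 of the 10 genes passed, and with the replicate number as a block 2 did (edgeR adjusted p for Hspa1b = 0.0481 and 0.0456). Over all genes these block fits called 52 and 28. Exchanging the pair of 10-week libraries with conflicting codes left 0 calls, with log2 fold changes of -0.78 for Hspa1a and -0.73 for Hspa1b. After the exchange the libraries grouped as 10-week knockout are both female, and those grouped as wild type both male. Genotype at 10 weeks then coincides with sex and title series, here and wherever this exchange is used below. The exchanged fit cannot tell them apart.

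Summed markers of other cell types differed in value between the genotypes at 10 weeks, and 1 marker, the epithelial Ager, passed in edgeR among the 8 dendritic, 8 T cell, 11 epithelial and 5 erythroid markers tested. In that order, 5, 3, 8 and 1 of them had an unadjusted p under 0.05 in edgeR, and DESeq2 called 1, 0, 3 and 0. Fewer cells of a type and less RNA per cell cannot be told apart in these bulk libraries. Listed dendritic cell markers summed to between 34.3 and 35.7 CPM in the knockout-labelled libraries and between 67.8 and 86.3 CPM in wild-type cells, with 7 of 8 tested markers lower in value. T cell markers summed to between 205.3 and 237.6 CPM in the knockout-labelled libraries and between 243.9 and 259.0 CPM in wild-type cells. These sums were almost all Cd2 in both genotypes, and 8 of 8 markers were lower in value. Epithelial markers went the other way, at 354.4 to 490.4 CPM in the knockout-labelled libraries and 260.5 to 315.0 CPM in wild-type cells, with 9 of 11 higher in value. Of the erythroid markers, 4 of 5 were lower in value, and their sum was 48.2 to 53.0 CPM in the knockout-labelled libraries and 70.6 to 160.9 CPM in wild-type cells. Of the immediate early genes, which respond quickly to many stimuli, 0 of 18 passed in edgeR at 10 weeks (6 at an unadjusted p under 0.05, 2 in DESeq2) and 11 of 18 were lower in value. They summed to between 2178.9 and 2650.5 CPM in the knockout-labelled libraries and between 2013.7 and 3218.3 CPM in wild-type cells, so their groups overlapped. Alveolar macrophage markers summed to 29456.3 to 33096.1 CPM in the knockout-labelled libraries and 24229.7 to 24819.6 CPM in wild-type cells, mostly Chi3l3, with 7 of 12 higher in value, a median of 0.07 and 0 past the threshold. The part of any of these in the heat shock values was not tested.

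At 4 weeks the HSP70 pair was lower in value in the knockout-labelled libraries, not past the threshold. Hspa1a was at 3.87 and 5.39 CPM in the knockout-labelled libraries, against 18.4 and 11.0 CPM in wild-type cells. Hspa1b was at 8.13 and 5.53 CPM in the knockout-labelled libraries, against 30.6 and 18.7 CPM in wild-type cells. Neither gene's groups overlapped. On the log2 scale the differences were -1.66 ± 0.66 and -1.83 ± 0.60 (edgeR adjusted p = 0.347 and 0.242). Of the 10 genes, 0 passed in edgeR, where 0.667% of all tested genes did, and 2 had an unadjusted p under 0.05, against 12% of all tested genes. DESeq2 also called 0, and edgeR with no filter called 2, the HSP70 pair. Over all genes DESeq2 called 261 and edgeR with no filter 690, against 85 in the main fit. Hsph1 was at 55.3 and 46.7 CPM in the knockout-labelled libraries and at 53.4 and 61.9 CPM in wild-type cells, with overlap. Hsp90aa1 was at 230.7 and 233.3 CPM in the knockout-labelled libraries and at 219.2 and 244.7 CPM in wild-type cells, also with overlap. The 8 genes beside the HSP70 pair had log2 fold changes between -0.18 and 0.70, and the median of the 10 was -0.02.

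Over both ages, the HSP70 pair was lower in the knockout-labelled libraries past the threshold. Hspa1a averaged 4.13 ± 1.97 CPM in the knockout-labelled libraries and 31.2 ± 21.6 CPM in wild-type cells (SD, n = 4 each). The log2 fold change came to -2.64 ± 0.47, a 6.22-fold lower level (edgeR adjusted p = 0.0271). Hspa1b averaged 5.88 ± 2.26 CPM in the knockout-labelled libraries and 39.0 ± 20.1 CPM in wild-type cells (SD, n = 4 each). The log2 fold change came to -2.60 ± 0.43, a 6.06-fold lower level (edgeR adjusted p = 0.0212). All 4 knockout-labelled libraries lay below all 4 of wild type for both genes. These were 2 of the 10 genes, where 0.384% of all tested genes passed in the lower direction and 0.996% in either, and where 2.28% of all tested genes were lower without overlap. Each call was lost without knockout replicate 2 or wild-type replicate 1 at 10 weeks, without either knockout library or wild-type replicate 1 at 4 weeks, and without both female libraries. Over the 8 fits that left out 1 library, the log2 fold change lay between -3.35 and -2.35 for Hspa1a and between -3.02 and -2.38 for Hspa1b, and each passed in 3. Both calls were also lost on exchanging the conflicting libraries, with log2 values of -1.22 and -1.28 (edgeR adjusted p = 0.739 and 0.701). Dendritic cell markers were at 22.7 to 38.3 CPM in the knockout-labelled 4-week libraries and 39.7 to 111.9 CPM in 4-week wild type, with Cd209a at 0 in both knockout-labelled 4-week libraries. Erythroid markers were at 347.8 to 642.7 CPM in the knockout-labelled 4-week libraries and 1330.4 to 3148.8 CPM in 4-week wild type in sum. Immediate early genes summed to 1654.0 to 1676.4 CPM in the knockout-labelled 4-week libraries and 2378.7 to 2829.5 CPM in 4-week wild type. Alveolar macrophage markers summed to 32222.0 to 44896.8 CPM in the knockout-labelled 4-week libraries and 27238.1 to 30697.3 CPM in 4-week wild type. Of 12 tested at 4 weeks, Marco was higher past the threshold (log2 fold change 2.25 ± 0.31, edgeR adjusted p = 0.00674). Over both ages 0 of the 12 passed. Over both ages 4 of 18 immediate early genes fell (Btg2, Jund, Jun and Egr1). In the same test 2 of 8 dendritic cell and 2 of 5 erythroid markers fell past the threshold, and 0 of 8 T cell and 0 of 11 epithelial markers passed. The part of these lists in the HSP70 values was not tested.

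The genotype difference was set against age by an interaction term. For Dnajb1 the log2 difference between the 10-week and the 4-week genotype effect was -0.77 ± 0.20, for Dnaja1 -0.83 ± 0.24 and for Chordc1 -1.01 ± 0.27 (edgeR adjusted p = 0.244, 0.327 and 0.255). Of the 10 genes, 0 passed in edgeR, where 0.188% of all tested genes did, and 4 had an unadjusted p under 0.05, against 8.65%. DESeq2 called 1 and edgeR with no filter 6. Over all genes they called 89 and 392, against 24 in the main fit. All 10 terms were negative, against 49.4% of all tested genes. A change of the genotype effect with age was therefore not shown by the main test for any of these genes.

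J-domain gene and Chordc1 levels were higher at 10 than at 4 weeks in wild-type cells. Dnaja1 was at 230.0 and 170.8 CPM at 10 weeks, against 88.9 and 90.1 CPM at 4 weeks. The log2 fold change came to 1.16 ± 0.17, a 2.24-fold higher level (edgeR adjusted p = 0.00542). Chordc1 was at 81.0 and 63.2 CPM at 10 weeks, against 36.7 and 41.2 CPM at 4 weeks, a 1.85-fold higher level (log2 fold change 0.89 ± 0.19, edgeR adjusted p = 0.0341). Dnajb1 was at 59.1 and 53.0 CPM at 10 weeks, against 37.2 and 36.1 CPM at 4 weeks, a 1.53-fold higher level (log2 fold change 0.62 ± 0.14, edgeR adjusted p = 0.0432). The ages did not overlap for any of the 3 genes, and 27.8% of all tested genes were higher at 10 weeks without overlap. They were 3 of the 10 genes, where 1.4% of all tested genes passed in the higher direction and 2.11% in either. Without 10-week replicate 1, without either 4-week library, or on exchanging the conflicting libraries, all 3 calls were lost. The Dnajb1 call was also lost without 10-week replicate 2, without both female libraries and with sex as a covariate. The same 10-week wild-type libraries serve in the genotype comparison, so these are not independent measurements. Erythroid markers were at 70.6 to 160.9 CPM at 10 weeks and 1330.4 to 3148.8 CPM at 4 weeks in wild type, 4 of 5 lower past the threshold. Epithelial markers were at 260.5 to 315.0 CPM at 10 weeks and 126.7 to 203.9 CPM at 4 weeks, with Epcam higher past the threshold and 6 of 11 lower in value. T cell markers were at 243.9 to 259.0 CPM at 10 weeks and 186.3 to 213.4 CPM at 4 weeks. These sums were almost all Cd2 at both ages, and 0 of 8 markers passed the threshold. Alveolar macrophage markers were at 24229.7 to 24819.6 CPM at 10 weeks and 27238.1 to 30697.3 CPM at 4 weeks, with Car4 lower past the threshold. The part of these in the age values was not tested. All 4-week libraries carry titles of the later number series and all are male. At 10 weeks the replicate 1 libraries carry titles of the earlier series and the replicate 2 libraries are female. Every 10-week library, of either genotype, thus differs from the 4-week ones in title series or in sex as well as in age.

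In knockout-labelled cells, 1 of the 10 genes passed with age. Hspe1 was at 39.1 and 38.4 CPM at 10 weeks, against 54.2 and 56.5 CPM at 4 weeks, without overlap. It fell, at -0.52 ± 0.13 on the log2 scale (edgeR adjusted p = 0.0311). This was 1 of the 10 genes, where 4.83% of all tested genes passed in the lower direction and 9.73% in either, a share near the background. In wild type Hspe1 was also lower at 10 weeks without overlap, at -0.19 ± 0.13 on the log2 scale (edgeR adjusted p = 0.452), and the interaction term was -0.32 ± 0.18 (edgeR adjusted p = 0.67). The call in knockout-labelled cells was lost without any 1 of the 4 libraries, without both female libraries, with sex as a covariate and on exchanging the conflicting libraries. Dnaja1 was at 127.2 and 92.4 CPM at 10 weeks and at 94.8 and 80.0 CPM at 4 weeks, so that the ages overlapped in the knockout-labelled libraries. Erythroid markers were at 48.2 to 53.0 CPM at 10 weeks and 347.8 to 642.7 CPM at 4 weeks in these libraries, and epithelial markers at 354.4 to 490.4 CPM at 10 weeks and 152.1 to 349.6 CPM at 4 weeks, and their part was not tested.

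**Figure D2:**
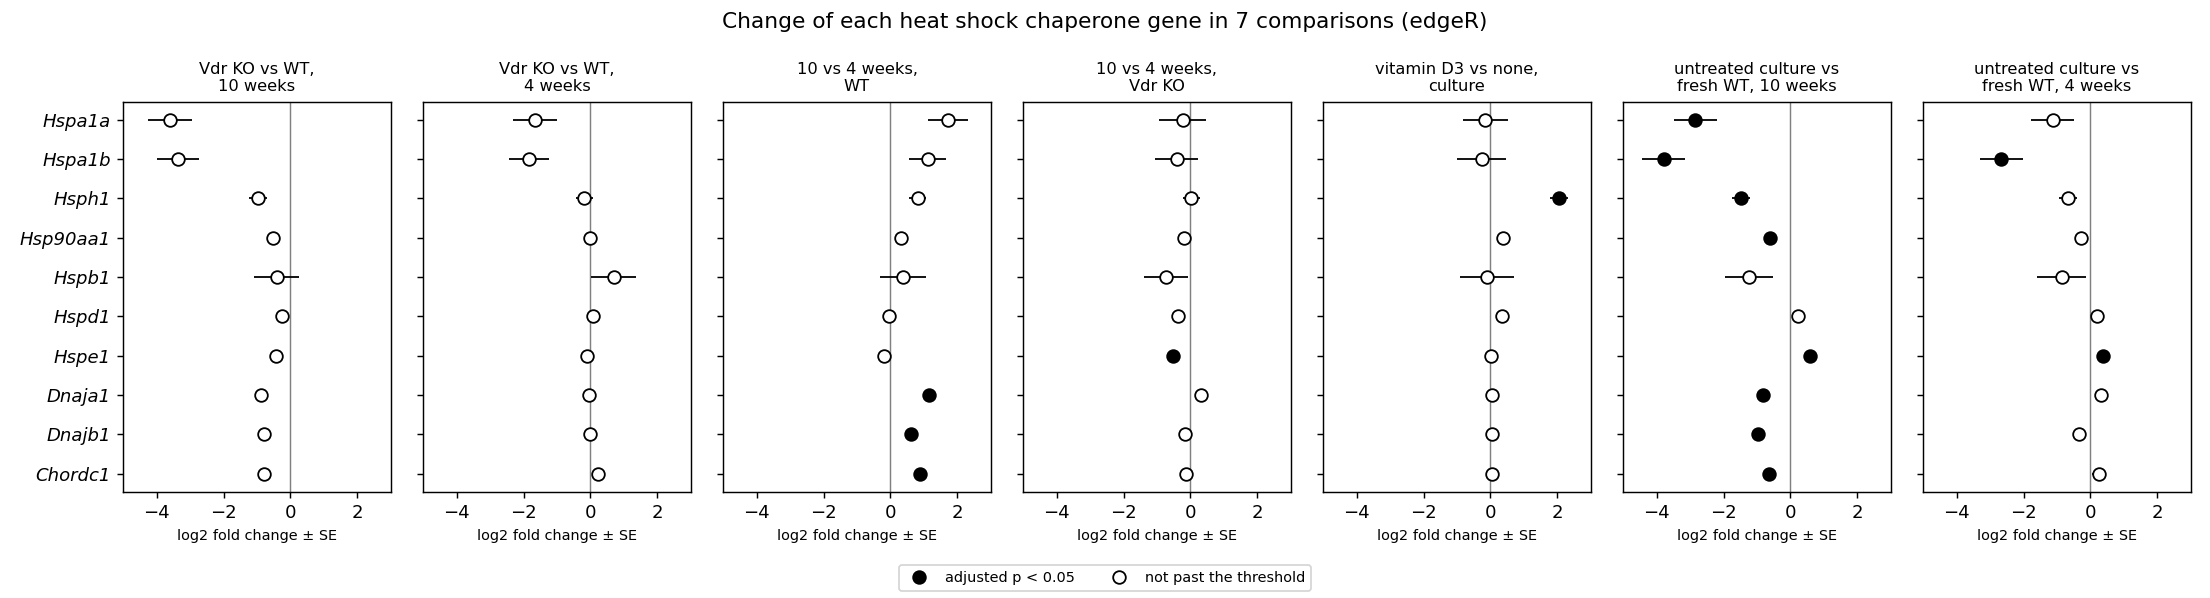
Log2 fold change (horizontal axis, edgeR, bars ± SE) of each of the 10 genes in 7 comparisons, filled where the adjusted p was under 0.05. All 10 points lie below 0 for genotype at 10 weeks, none of them filled, and Hsph1 at 2.05 is the filled point for vitamin D3.

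With vitamin D3 in culture, Hsph1 rose. The gene was at 167.8 and 130.5 CPM with vitamin D3, against 33.3 and 39.2 CPM without it. Both treated libraries lay above every other library of the series. The level was 4.13-fold higher, at 2.05 ± 0.27 on the log2 scale (edgeR adjusted p = 0.000563). Within the first and the second series of title numbers the log2 difference was 2.30 and 1.71. The call held in all 15 alternatives tried, with log2 fold changes from 1.85 to 2.22. Hsph1 was 1 of the 10 genes called, where 5.0% of all tested genes passed in the higher direction and 10.6% in either, so the share of called genes was near the background. T cell markers summed to 124.5 to 138.0 CPM with vitamin D3 and 220.2 to 227.7 CPM without it. That sum was almost all Cd2, which fell, while 4 of 8 markers were higher and 4 lower in value. Cd2 was at -0.79 ± 0.11 on the log2 scale (edgeR adjusted p = 0.00074). Immediate early genes summed to 1703.5 to 1713.5 CPM with it and 1333.6 to 1400.4 CPM without it, with 3 of 18 higher and 3 lower past the threshold. Epithelial markers summed to 60.9 to 76.0 CPM with vitamin D3 and 42.1 to 42.8 CPM without it, where Cdh1 rose and 7 of 11 markers were lower in value. Cdh1 was at 1.19 ± 0.27 on the log2 scale (edgeR adjusted p = 0.0163). Dendritic cell markers summed to 28.8 to 32.1 CPM with vitamin D3 and 36 to 40.6 CPM without it. Alveolar macrophage markers summed to 14320.2 to 16138.1 CPM with vitamin D3 and 16382.7 to 18648.7 CPM without it. Of 12 tested, 2 were higher past the threshold, among them Car4, and 3 lower, among them Fabp4 and Krt79. The part of these lists in the Hsph1 value was not tested.

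The other 9 genes did not pass with vitamin D3. Hsp90aa1 was at 247.7 and 255.6 CPM with vitamin D3, against 186.9 and 197.0 CPM without it (log2 fold change 0.39 ± 0.15, edgeR adjusted p = 0.13). Hspd1 was at 266.8 and 236.7 CPM with vitamin D3, against 188.3 and 204.1 CPM without it (log2 fold change 0.36 ± 0.13, edgeR adjusted p = 0.118). The groups overlapped for neither gene. Hspa1a was at 3.49 and 8.78 CPM with vitamin D3 and at 2.57 and 11.3 CPM without it, with overlapping groups. Hspb1, Hspe1, Dnaja1, Dnajb1 and Chordc1 overlapped between the cultures too. Their log2 fold changes, with those of Hspa1a and Hspa1b, lay between -0.26 and 0.06.

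Culture without vitamin D3 was set against fresh wild-type cells at each age, since the age of the cultured cells is not given. Against 10-week cells, Hspa1b was at 1.48 and 6.72 CPM in culture and at 65.8 and 40.8 CPM in fresh cells, log2 fold change -3.79 ± 0.65 (edgeR adjusted p = 0.000677). Hspa1a was at 2.57 and 11.3 CPM in culture and at 59.4 and 36.2 CPM in fresh cells, log2 fold change -2.85 ± 0.64 (edgeR adjusted p = 0.00401). Without culture replicate 2 the log2 fold changes were -5.17 for Hspa1b and -4.21 for Hspa1a, and without culture replicate 1 they were -2.99 and -2.09, called in each. Hsph1 fell by 1.49 on the log2 scale, Dnajb1 by 0.97, Dnaja1 by 0.83, Chordc1 by 0.64 and Hsp90aa1 by 0.61. Hspe1 rose, at 66.3 and 89.2 CPM in culture and 49.4 and 54.5 CPM in fresh cells (log2 fold change 0.58 ± 0.13, edgeR adjusted p = 0.00368). In all, 7 of the 10 genes fell and 1 rose, where 21.2% of all tested genes fell and 21.2% rose, 42.4% in all. The Chordc1 call was lost without 10-week replicate 1 or without culture replicate 2, and on exchanging the conflicting libraries 2 of the 10 genes were called. Without scaling between libraries the median of all genes shifted by -0.29 on the log2 scale, 23.6% of the calls over all genes were higher instead of 50.0%, and the log2 fold change of Hspe1 was 0.29 and no longer called (edgeR adjusted p = 0.0825). That of Hspd1 became -0.05 in place of 0.23, uncalled in both.

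Against 4-week wild-type cells, 1 of the 10 genes fell and 1 rose, where 19.5% of all tested genes fell and 20.1% rose, 39.7% in all. Hspa1b was at 1.48 and 6.72 CPM in culture and at 30.6 and 18.7 CPM in fresh cells, log2 fold change -2.67 ± 0.64 (edgeR adjusted p = 0.00639). Hspe1 was at 66.3 and 89.2 CPM in culture and at 61.3 and 57.4 CPM in fresh cells, log2 fold change 0.39 ± 0.13 (edgeR adjusted p = 0.0322). The Hspe1 call was lost without either 4-week library or without culture replicate 2, where its log2 fold change was 0.17. On exchanging the conflicting 10-week libraries, which serve only through the shared spread, 0 were called (edgeR adjusted p = 0.104 for Hspa1b and 0.11 for Hspe1). Without scaling between libraries the log2 fold change of Hspe1 was 0.10 and not called, the calls over all genes were 23.7% higher instead of 50.8%, and Hspd1 and Chordc1, uncalled, changed sign to -0.10 and -0.03. Immediate early genes summed to between 1333.6 and 1400.4 CPM in untreated culture. Of 18 tested, 14 fell and 1, Atf3, rose against 10-week cells, and 15 fell and 1 rose against 4-week cells. Dendritic cell markers summed to 36 and 40.6 CPM in untreated culture, with Cd209a at 0, and epithelial markers to between 42.1 and 42.8 CPM. Alveolar macrophage markers summed to 16382.7 to 18648.7 CPM in untreated culture, against 24229.7 to 24819.6 CPM at 10 weeks and 27238.1 to 30697.3 CPM at 4 weeks in fresh wild type. The part of these in the culture values was not tested.

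The HSP70 pair is nearly identical, and the authors' counting could split reads between the copies. Of the 50-base words of the Hspa1a transcript, 58.8% also occur in Hspa1b, and 62.3% of those of Hspa1b occur in Hspa1a. The summed counts of the pair were therefore tested too. For knockout-labelled against wild-type cells the sum gave a log2 fold change of -3.49 ± 0.64 at 10 weeks (edgeR adjusted p = 0.0771) and -1.77 ± 0.62 at 4 weeks (0.276). Over both ages it was -2.63 ± 0.44 (0.0219). In untreated culture the sum was lower than in fresh wild-type cells of either age, with log2 values of -3.26 ± 0.64 against 10 weeks and -1.89 ± 0.63 against 4 weeks (edgeR adjusted p = 0.00167 and 0.0322).

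The share of Hspa1a in the summed counts differed between cultured and fresh cells. It was 71.7% and 61.9% in culture with vitamin D3, 63.5% and 62.6% in culture without it, and between 32.3% and 49.4% in the 8 fresh libraries. No cultured library overlapped a fresh one. The lowest cultured share, in 202 counts, had a Wilson 95% interval of 55.0 to 68.3%, and the highest fresh share, in 156 counts, one of 41.6 to 57.1%. These intervals cover counting error only and overlap for that pair of libraries. The difference in share was not tested across libraries.

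**Figure D3:**
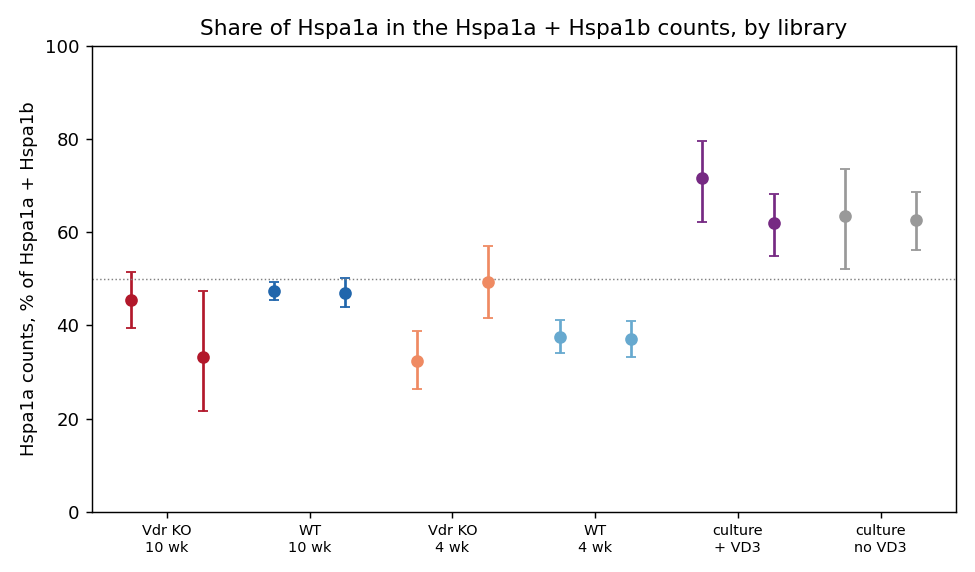
Share of Hspa1a in the counts of Hspa1a and Hspa1b, in percent, by library with Wilson 95% intervals; the dotted line marks equal counts. The 4 cultured libraries lie between 61.9% and 71.7% and the 8 fresh libraries between 32.3% and 49.4%.

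The order of the 6 groups differed between the genes. Wild-type cells at 10 weeks had the highest mean for Hspa1a, Hspa1b, Hsp90aa1, Dnaja1, Dnajb1 and Chordc1, and did not overlap the group next in order for any of these 6 genes. The share of all tested genes with that order was not counted. In single comparisons without overlap, 20.9% of them were lower in knockout-labelled than in wild-type cells at 10 weeks. In wild type, 27.8% were higher at 10 than at 4 weeks. For Hspa1b the next group was 4-week wild type at 24.6 CPM, which did not overlap the knockout-labelled 4-week libraries at 6.83 CPM. The remaining neighbours (10-week knockout at 4.93, untreated culture at 4.10 and vitamin D3 culture at 3.39 CPM) overlapped. Hsph1 was highest in vitamin D3 culture, at 149.2 CPM, and lowest in untreated culture, at 36.2 CPM, with no overlap of either group with its neighbour. Hspd1 and Hspe1 had their highest mean in vitamin D3 culture, at 251.8 and 79.2 CPM, and their lowest in 10-week knockout-labelled cells, at 140.3 and 38.7 CPM. For Hspe1, vitamin D3 culture overlapped untreated culture, which had a mean of 77.7 CPM.

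Across the 12 libraries, the log2 levels of Hspa1a and Hspa1b had a Pearson r of 0.92, Dnaja1 and Chordc1 one of 0.90, and Hspd1 and Hspe1 one of 0.84. The lowest r of any pair was -0.43, for Hspb1 and Hspe1. These values describe libraries that share groups, and reads for the HSP70 pair. The genes whose pattern was most like the mean of the 10, among 9297 other genes with a mean of at least 5 CPM, were Mgme1 (r = 0.866), Stip1 (0.861), Prpf18 (0.852), Lins (0.851), Mettl3 (0.828) and Eif4a2 (0.823). Stip1, which bridges HSP70 and HSP90, was at 85.8 and 62.4 CPM in knockout-labelled 10-week libraries and at 105.5 and 110.3 CPM in wild-type cells.

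The other chaperones were compared between genotypes as well, without a test between lists. Of 33 listed cofactors and other cytosolic or mitochondrial chaperones, 0 passed in edgeR at 10 weeks (10 at an unadjusted p under 0.05, 3 in DESeq2) and the median log2 fold change was -0.13. Hspa8, the constitutive HSP70, was at 2456.5 and 1993.3 CPM in the knockout-labelled 10-week libraries and at 3137.0 and 3404.3 CPM in wild-type cells (log2 fold change -0.56 ± 0.15, edgeR adjusted p = 0.215). Hsp90ab1, the constitutive HSP90, was at 1183.9 and 828.7 CPM in the knockout-labelled libraries and at 1466.4 and 1418.5 CPM in wild-type cells (log2 fold change -0.52 ± 0.14, edgeR adjusted p = 0.199). Neither gene's groups overlapped. Hsf1, the gene of the heat shock factor itself, was at 36.6 and 29.6 CPM in the knockout-labelled libraries and at 38.8 and 42.6 CPM in wild-type cells. The cytosolic chaperonin TRiC had 0 of 8 subunits and the endoplasmic reticulum chaperones 0 of 13 past edgeR's threshold at 10 weeks, with medians of -0.15 and -0.08 (1 and 0 at an unadjusted p under 0.05, 0 and 0 in DESeq2). At 4 weeks, 0 genes of these 3 lists passed in edgeR (2, 0 and 0 at an unadjusted p under 0.05, 0 in DESeq2).

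With age in knockout-labelled cells, the J-domain genes Dnaja4 and Dnajb4 rose. Dnaja4 was at 5.07 and 4.79 CPM at 10 weeks and at 0.885 and 1.33 CPM at 4 weeks (log2 fold change 2.16 ± 0.44, edgeR adjusted p = 0.0109). Dnajb4 was at 7.36 and 8.49 CPM at 10 weeks and at 3.04 and 2.59 CPM at 4 weeks (log2 fold change 1.48 ± 0.31, edgeR adjusted p = 0.0121). They were 2 of 33 cofactors, where 9.73% of all tested genes passed in either direction. The TRiC subunit Cct4 fell (log2 fold change -0.38 ± 0.11, edgeR adjusted p = 0.045). It was 1 of 8 subunits, where 4.83% of all tested genes passed in the lower direction. All 8 subunits were lower in value, with a median of -0.33 (8 at an unadjusted p under 0.05 in edgeR, 4 in DESeq2). In wild type all 8 were also lower in value at 10 weeks, with a median of -0.14. Dnaja4 and Dnajb4 were also higher at 10 weeks in wild type without overlap but did not pass. Dnaja4 was at 8.67 and 4.04 CPM at 10 weeks and at 2.65 and 1.83 CPM at 4 weeks (log2 fold change 1.53 ± 0.40, edgeR adjusted p = 0.0729). Dnajb4 was at 8.91 and 10.1 CPM at 10 weeks and at 3.42 and 5.84 CPM at 4 weeks (log2 fold change 1.01 ± 0.29, edgeR adjusted p = 0.0917). Of the lists in wild type, 0 of 33 cofactors, 0 of 8 TRiC subunits and 0 of 13 endoplasmic reticulum chaperones passed with age in edgeR (6, 1 and 0 at an unadjusted p under 0.05, 4, 0 and 0 in DESeq2).

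With vitamin D3, 2 cofactors of the list rose, both mitochondrial. Hspa9, the mitochondrial HSP70, was at 449.8 and 440.2 CPM with vitamin D3 and at 286.5 and 320.3 CPM without it (log2 fold change 0.55 ± 0.10, edgeR adjusted p = 0.00327). Dnaja3, its mitochondrial J-domain partner, was at 75.0 and 74.0 CPM with vitamin D3 and at 50.9 and 58.5 CPM without it (log2 fold change 0.45 ± 0.10, edgeR adjusted p = 0.0135). These were 2 of 33 cofactors, a share near the 5.0% of all tested genes that rose, and 0 fell. The mitochondrial Hspd1 and Hspe1 did not pass (edgeR adjusted p = 0.118 and 0.925). All 8 TRiC subunits and 12 of 13 endoplasmic reticulum chaperones were higher in value, with medians of 0.20 and 0.21 against 0.00 over all tested genes, and 0 of either list passed in edgeR (1 and 2 at an unadjusted p under 0.05, 0 and 0 in DESeq2).

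In untreated culture against 10-week wild type, 7 of 33 cofactors rose and 7 fell, near the 21.2% of all tested genes that passed in each direction. Hspa8 was at 1367.0 and 1789.4 CPM in culture and at 3137.0 and 3404.3 CPM in fresh cells (log2 fold change -1.05 ± 0.15, edgeR adjusted p = 0.00023). Hsf1 was at 27.5 and 30.9 CPM in culture and at 38.8 and 42.6 CPM in fresh cells (log2 fold change -0.48 ± 0.13, edgeR adjusted p = 0.0112). Dnajb6 rose, at 151.5 and 161.3 CPM in culture and 93.2 and 94.8 CPM in fresh cells (log2 fold change 0.73 ± 0.09, edgeR adjusted p = 6.14e-05). Hspa9, Hspa4, Bag1, Stub1, Dnaja3 and Hspbp1 were the other cofactors that rose, and Hspa4l, Dnaja4, Fkbp4, Ahsa2 and Stip1 the others that fell. Of the endoplasmic reticulum chaperones, 5 of 13 rose and 2 fell, among them the lectin chaperone Calr, with a log2 fold change of 0.84 ± 0.12, and the J-domain gene Dnajb9, with one of -1.08 ± 0.12 (edgeR adjusted p = 0.000138 and 3.56e-05). Against 4-week wild type, 7 cofactors rose and 5 fell, where 20.1% of all tested genes rose and 19.5% fell.

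**Figure D4:**
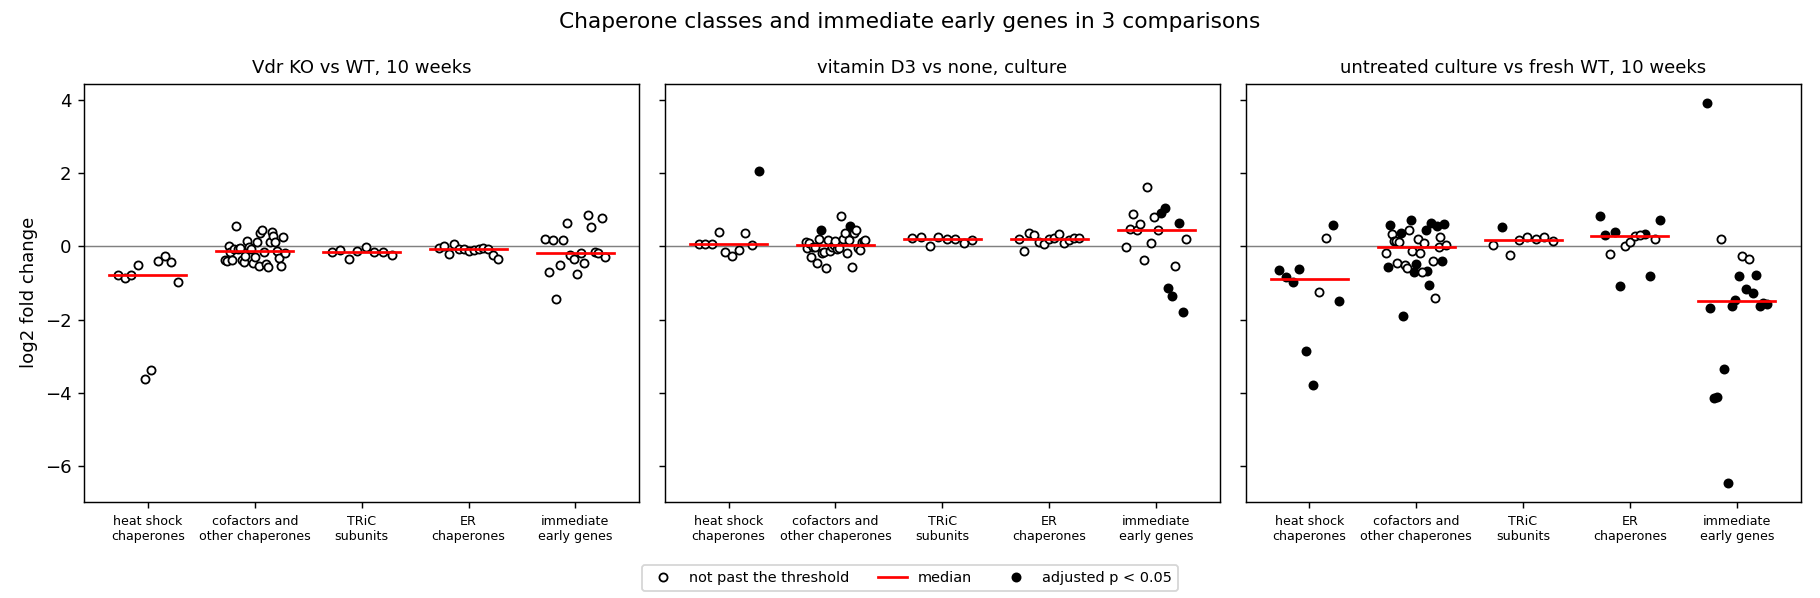
Log2 fold change (vertical axis) of every tested gene of 5 gene lists in 3 comparisons; each point is a gene, filled where the edgeR adjusted p was under 0.05, and red bars are list medians. At 10 weeks the heat shock chaperones have a median of -0.78, against -0.13 for cofactors, -0.15 for TRiC subunits, -0.08 for endoplasmic reticulum chaperones and -0.19 for immediate early genes.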

How the data were processed

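RNA-seq was measured in 12 libraries. The authors deposited raw counts per gene, and a table of log2(CPM + 1) for 10631 genes, with 9 of the 10 heat shock genes, whose CPM sum to 1000000 per column without scaling between libraries. TopHat2, edgeR and mm9 are named in the submitters' processing notes; the counter, the strand setting and the annotation were not given in the sources used here. Columns were matched to libraries by title, and groups follow the genotype label.

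The deposited counts were tested in R 4.3.3 with edgeR 4.0.16 (quasi-likelihood F test, TMM scaling). A filter with filterByExpr (minimum count 10, minimum total count 15) left 12748 genes. All 12 libraries entered 1 fit, leaving 6 residual df. Adjustment was by Benjamini-Hochberg over all tested genes, threshold 0.05. CPM uses TMM library sizes; ± is the SD of CPM values or the SE of a log2 value. The code was tested on simulated data. Alternatives included DESeq2 1.42.0. The 10 genes, the other lists and the rule for naming their genes (up to 4 with the smallest p, and cofactors past the threshold) were chosen with earlier results of these data known. Listed B cell markers summed to 5.31 CPM or less in every library, and neutrophil markers to 71.4 CPM or less.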

Additional observations from a re-analysis of the deposited data

How the results depend on the processing

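Of 804 results for single genes under alternatives, 670 kept their direction and their side of the threshold, 53 lost the call, 78 gained one and 3 changed direction; the cause was not tested. Hspb1 at 10 weeks ran from -1.63 to 0.12 with 1 library left out at a time, turned to 0.12 without knockout replicate 2 and to 0.14 without both female libraries, and Hspe1 at 10 weeks turned to 0.07 on exchanging the libraries with conflicting codes. Sex as a covariate, both female libraries left out, no scaling and the crossed pairing were chosen after seeing the data.

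Counts of the 10 genes called moved as follows, and brackets hold the calls over all genes in the same fit. The main fit called 14 of all genes at 10 weeks, 85 at 4 weeks, 127 over both ages and 24 for the interaction. For age it called 269 in wild type and 1240 in knockout, for vitamin D3 1356 and for culture against 4 weeks 5055. DESeq2 gave 6 (149) for genotype at 10 weeks, 5 (369) over both ages, 1 (89) for the interaction and 2 (1532) for age in knockout. No filter gave 7 (503) at 10 weeks, 2 (690) at 4 weeks, 5 (791) over both ages and 6 (392) for the interaction. It gave 6 (1223) for age in wild type, 2 (2059) for age in knockout, 2 (1989) for vitamin D3 and 5 (5296) for culture against 4 weeks. Fitting only the compared groups gave 2 (26) at 10 weeks, 2 (635) at 4 weeks and 5 (606) for age in wild type. The exchange gave 0 (29) over both ages and 0 for age in wild type (331) and knockout (821). It gave 2 (5199) for culture against 10 weeks and 0 (4811) against 4 weeks. Leaving out both female libraries leaves a lone library in each 10-week group. Calls over all genes changed in that fit as well, so its counts are not set out. Sex as a covariate gave 3 (24) at 10 weeks and 4 (5019) for culture against 4 weeks, and no scaling gave 4 (5804) for culture against 4 weeks.

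With the title series as a replicate block the count was 4 (52 over all genes) at 10 weeks, 4 (251) over both ages and 1 (40) for the interaction. With the replicate number as a block it was 2 (28) at 10 weeks. Deviations of same-numbered libraries from their group means correlated at 0.17 at 10 weeks, -0.18 at 4 weeks and 0.36 in culture. The numbers were therefore not taken as pairs over the series, although at 10 weeks libraries of 1 number share sex and title series. With the 4-week pairing crossed in the replicate block, 3 (35 over all genes) were called at 10 weeks.

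With 1 library left out at a time, calls among the 10 genes moved with the library left out, as did calls over all genes, so their counts are not set out. The log2 fold change of Dnajb1 between genotypes at 10 weeks then lay between -0.86 and -0.7. That of Dnaja1 with age in wild type lay between 0.93 and 1.37. A lone library left in a group is assumed to vary like the other groups. Depth limits Hspb1, at 1.26 CPM or less.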
